A study of Homo sapiens with 12 samples.

Results

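The 10 genes described here encode NRF2 (gene NFE2L2) and 9 proteins of glutathione and quinone defence, namely GPX1, GPX2, GPX4, GCLC, GCLM, GSR, GSTP1, NQO1 and HMOX1. They were chosen by name as a pathway, with earlier results of these data known and no threshold on a measured value, and all 10 were found among the 57879 gene identifiers of the files. All of them passed the filter on low values and were tested. RNA was sequenced from A549, an established human lung adenocarcinoma line, in 4 stable lentiviral lines. The vector line carried the empty expression construct, and the TIF1γ line carried the construct that overexpresses TIF1γ, the product of TRIM33. The sh-NC line carried the control shRNA construct, and the sh-TAF15 line carried an shRNA directed against TAF15, a nuclear protein that binds RNA. All 4 lines were thus infected A549 cells, grown in DMEM with serum. Whether a line was 1 clone or a pool, and which promoter drove each construct, is not given in the sources used here. Of 12 labelled samples, 3 per line, 8 are used: replicates 1, 2 and 3 of vector, 2 and 3 of TIF1γ, only 2 of sh-NC, and 2 and 3 of sh-TAF15. The remaining 4 are not analysed here. Values are FPKM, a fragment count scaled by transcript length and library size.

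NRF2 is a transcription factor that KEAP1, an adaptor of the CUL3 ubiquitin ligase, marks for degradation in unstressed cells. When electrophiles or oxidants modify KEAP1, NRF2 accumulates and pairs with a small MAF protein. The pair then binds antioxidant response elements near genes of glutathione synthesis, glutathione conjugation, quinone reduction and heme breakdown. A549 is widely used as a line with high NRF2 activity, because it carries a loss-of-function change in KEAP1. NRF2 activity is set largely by protein stability, so NFE2L2 mRNA is not a direct measure of it. Among the enzymes, GCLC and GCLM are the catalytic and modifier subunits of glutamate-cysteine ligase, the rate-limiting enzyme of glutathione synthesis. GSR reduces oxidised glutathione. GPX1 and GPX2 are selenoenzymes that reduce soluble peroxides, and GPX4 reduces lipid peroxides and restrains ferroptosis. GSTP1 conjugates glutathione to electrophiles, NQO1 reduces quinones with NAD(P)H, and HMOX1 opens the heme ring.

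Summed FPKM per library ran from 881293 to 1356634, and the depth estimated from the steps between low values ran from 14400000 to 18900000 fragments. Along the first principal component (61.5% of the variance) the 3 libraries of the sh-NC and sh-TAF15 lines (the sh lines) lay apart from the 5 vector and TIF1γ libraries. TRIM33 stood at 2.23, 2.10 and 1.27 FPKM in vector and at 8.03 and 6.14 in TIF1γ, with no overlap (fitted log2 fold change 1.44, SE 0.27, adjusted p = 0.13 by limma). TAF15 itself is not analysed here, so its knockdown was not checked. The epithelial keratin KRT7 was abundant in every library, at 1516 to 3746 FPKM. KRT19, another epithelial keratin, stood at 26.9 to 61.7 in the vector and TIF1γ lines and at 0.243 to 0.775 in the sh lines. Of 8 tested epithelial markers, 7 were called lower in the sh lines (5 with the GC trend described below removed, and 5 without sh-NC replicate 2 or without sh-TAF15 replicate 2). The list held 11 epithelial markers. KRT8 and KRT18 were set aside from every test, being listed at 0 in both TIF1γ libraries. They stood at 4561 to 5747 FPKM in vector and 1130 to 2235 in the sh lines. SOX2, below the filter, went the other way, at 0.233 to 0.67 against 0.850 to 1.39 in the sh lines. Over all genes tested, 21.4% were called lower and 20.0% higher (14.6% and 17.6% with that trend removed). Of other cell types, 5 endothelial markers summed to 0.0138 to 0.298 FPKM. Summed fibroblast markers stood at 1.11 to 3.35 FPKM in the vector and TIF1γ lines and 4.39 to 7.69 in the sh lines, and leukocyte markers at 37.3 to 87.8 and 29.2 to 36.1. Of 3 tested fibroblast markers 2 were called higher and 1 lower in the sh lines, and of 3 tested leukocyte markers 1 higher and 2 lower. The fibroblast collagen COL1A1 stood at 0.26 to 1.11 in the vector and TIF1γ lines and at 2.43 to 3.64 in the sh lines, and COL1A2 at 0 to 0.0473 and at 1.04 to 1.85. COL1A2 passed the filter only through the sh lines. THY1, the tested fibroblast marker that went the other way, stood at 0.60 to 2.64 and at 0.0849 to 1.71. Of the leukocyte markers, CD68 stood at 24.4 to 52.1 in the vector and TIF1γ lines and at 22.3 to 27.4 in the sh lines. CD14 stood at 11.7 to 35.0 and at 4.30 to 10.15. ITGAM went the other way, at 0.111 to 0.859 and at 1.14 to 2.42. CD3E was listed at 0 in all 8 libraries and PTPRC reached 0.0227 at most. CDKN2A, CDKN2B and MTAP, which lie in a region deleted in A549, summed to 0.214 to 0.596 in the vector and TIF1γ lines and to 0.279 to 2.30 in the sh lines, the highest value through CDKN2A at 1.895 in sh-TAF15 replicate 3. The part of these markers in the differences below was not tested. In RNA from whole cultures, fewer cells of one kind and less RNA per cell cannot be told apart.

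Promoter windows show where an antioxidant response element could be read near these genes. The core TGACNNNGC was searched on both strands in windows from 250 bases before to 50 bases after each start, taken from RefSeq (GRCh38.p14). A window was available for 8 of the 10 genes (11 windows, since NFE2L2 has 2 and GPX4 has 3), and GSR and HMOX1 are named only. The core was present in windows of 3 genes, GPX2, GSTP1 and GCLM, and in 4687 of all 35116 windows (13.3%). These 3 are shown because they hold the match. Of them, GPX2 and GSTP1 were called lower in the sh lines described below and GCLM was not. Of the genes with windows but no match, GPX4 and NQO1 were called lower and NFE2L2, GPX1 and GCLC were not. The calls therefore do not sort by the match. Each line gives the 250 bases before the start, 5′ to 3′ on the strand of the gene, with the core in capitals. The windows are chr14:64942746-64942995 (minus strand) for GPX2, chr11:67583562-67583811 (plus strand) for GSTP1 and chr1:93909431-93909680 (minus strand) for GCLM.
GPX2: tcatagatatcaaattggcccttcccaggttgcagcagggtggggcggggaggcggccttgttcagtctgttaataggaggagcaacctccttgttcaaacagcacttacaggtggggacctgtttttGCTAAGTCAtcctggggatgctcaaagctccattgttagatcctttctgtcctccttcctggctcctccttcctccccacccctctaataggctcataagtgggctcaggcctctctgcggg
GSTP1: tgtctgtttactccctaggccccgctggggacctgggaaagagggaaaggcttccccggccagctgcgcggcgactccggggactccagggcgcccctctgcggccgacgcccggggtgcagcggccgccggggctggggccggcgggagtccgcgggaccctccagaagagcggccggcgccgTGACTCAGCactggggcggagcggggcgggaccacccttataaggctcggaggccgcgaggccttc
GCLM: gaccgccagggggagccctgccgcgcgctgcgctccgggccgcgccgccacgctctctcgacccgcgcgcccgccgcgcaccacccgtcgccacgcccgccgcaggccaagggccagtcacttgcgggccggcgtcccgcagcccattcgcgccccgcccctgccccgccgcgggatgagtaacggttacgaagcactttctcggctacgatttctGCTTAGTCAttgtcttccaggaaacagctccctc
In GPX2 the core lay at -122 to -114 from the start and read on the opposite strand. In GSTP1 it lay at -66 to -58 on the strand of the gene, and in GCLM at -34 to -26 on the opposite strand. A match describes letters in a window and is not evidence of binding. No match was found in the windows of NFE2L2, GPX1, GPX4, GCLC and NQO1, which says only that these 9 letters are not within those bases.

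In the vector line the 10 genes spanned a wide range of levels per length. NQO1 was the most abundant at 4198 ± 396 FPKM (SD, n = 3), followed by GSTP1 at 2568 ± 359 and GPX2 at 781 ± 197. GPX4 at 571 ± 62.1 and GPX1 at 501 ± 80.8 overlapped each other. GSR stood at 237 ± 50.1. Next came HMOX1 at 86.4 ± 15.4, GCLC at 57.8 ± 15.4 and GCLM at 42.4 ± 12.7, each overlapping its neighbour in that order. NFE2L2 itself was the lowest, at 17.9 ± 3.73, separate from GCLM. The TIF1γ line kept this order of means, with NQO1 overlapping GSTP1 and GPX2 overlapping GPX4. In both sh lines NQO1 and GSTP1 were again the 2 highest, while GPX2 had moved from the third place to the last, below NFE2L2. The plot of FPKM by library shows each value.

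**Figure D1:**
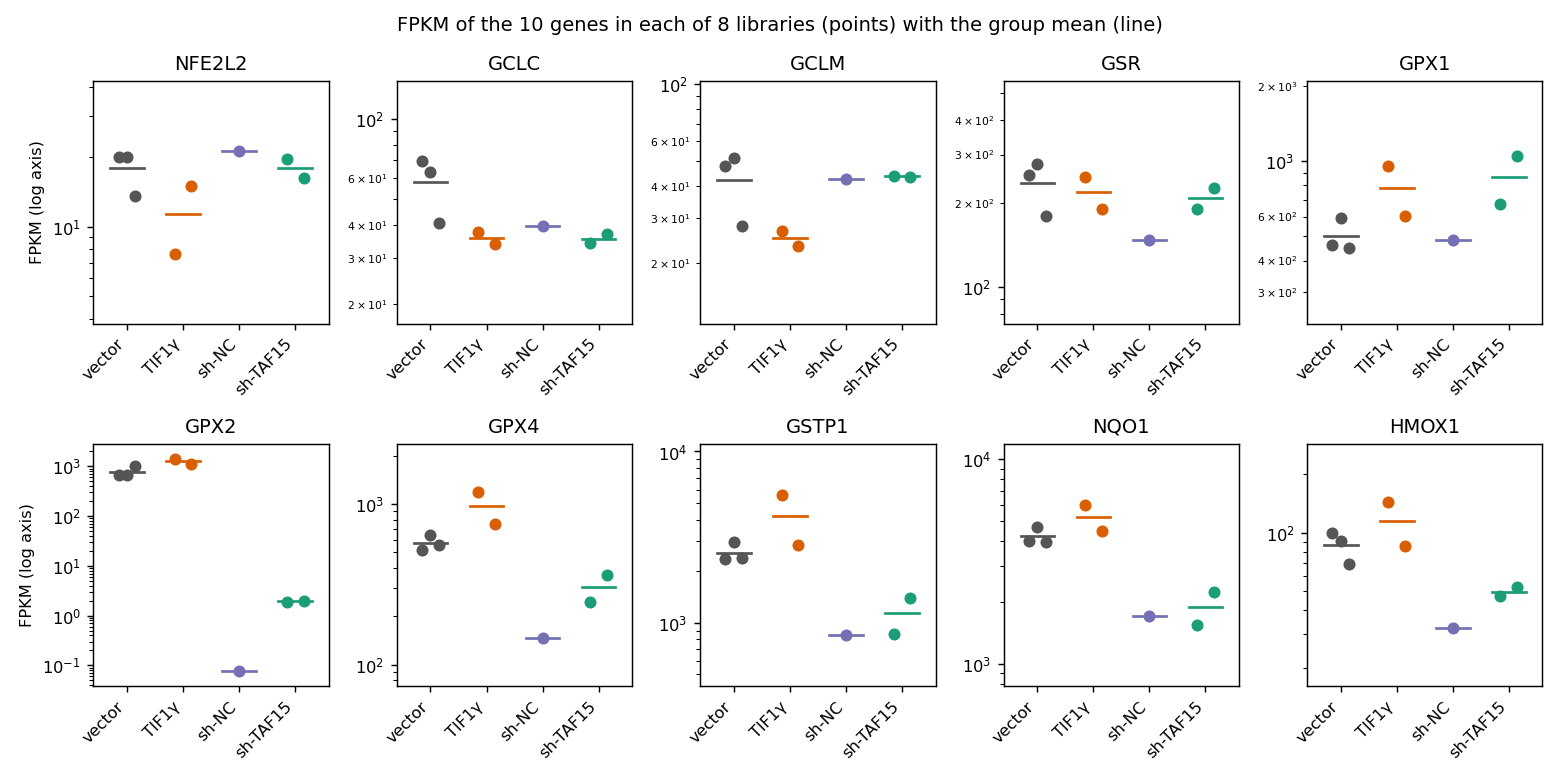
FPKM of each of the 10 genes (vertical axis, log scale, own range in each panel) by group; a point is a library and a line is the group mean (8 libraries in all). GPX2, GPX4, GSTP1, NQO1 and HMOX1 lie lower in all 3 sh libraries than in every other library, and the other 5 genes overlap.

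The largest separation among the 8 libraries was between the sh lines and the vector and TIF1γ lines. GPX2, GPX4, GSTP1, NQO1 and HMOX1 were all lower in the sh lines, GPX2 most of all and the other 4 by 2.22 to 3.09 times on the FPKM means. NFE2L2, GCLC, GCLM, GSR and GPX1 did not pass the test. The contrast set the mean of sh-NC and sh-TAF15 against the mean of vector and TIF1γ, each group weighted equally, in a limma fit on log2(FPKM + 1) after scaling, with Benjamini-Hochberg adjustment over 13907 genes. A call is an adjusted p under 0.05. Means given below over the 5 vector and TIF1γ libraries, or over the 3 sh libraries, pool both lines of that side. Their SD therefore includes the difference between lines. They are unscaled FPKM with each library weighted equally, so their ratios differ from the fitted values. In this contrast 41.4% of all genes tested were called, 21.4% lower and 20.0% higher (2978 and 2780 genes, or 2305 and 3841 without scaling, which moved the median of all genes by 0.15 log2 units). Of the 10 genes, 5 were called lower and 0 higher, with a median log2 fold change of -0.98 against 0.01 for all genes tested. These same 5 had all 3 sh libraries below all 5 other libraries, against 12.4% of genes tested, and no gene of the 10 lay above all others, against 24.4%. The construct and the stable line cannot be told apart in this contrast, since each construct is held by 1 line. A difference in preparation, sequencing or quantification between these sets of libraries was not tested. The listed values of FTL, the ferritin light chain, split along the same line. FTL was at 0 in all 5 vector and TIF1γ libraries and at 14970 to 33399 FPKM in the 3 sh libraries. The heavy chain FTH1 stood at 7361 to 18482 over all libraries. The reason for the FTL zeros, and its part in this contrast, was not tested.

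GPX2, the gastrointestinal-type glutathione peroxidase and a known NRF2 target, had the lowest values in the sh lines of all 10 genes. It stood at 658, 677 and 1008 FPKM in vector and at 1423 and 1137 in TIF1γ. In sh-NC it stood at 0.0758, and in sh-TAF15 at 1.89 and 2.01. The sh libraries therefore did not come near the other lines. By the depth estimate these values correspond to 13588 to 24051 fragments in the vector and TIF1γ libraries, to 32.1 and 32.9 in sh-TAF15, and to 1.4 in sh-NC, so the sh-NC level is barely above detection. The vector mean was 401 times the sh-TAF15 mean; no ratio to sh-NC is given at 1.4 fragments. The fitted log2 fold change of GPX2 in the sh lines was -9.23 (SE 0.21, adjusted p = 7.06e-12 by limma). Its size rests on the added pseudocount, and over 17 settings it ran from -10.83 to -8.55, past the threshold each time.

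GPX4, the lipid peroxide reductase, stood at 519, 640 and 554 FPKM in vector, at 1185 and 753 in TIF1γ, at 147 in sh-NC, and at 245 and 361 in sh-TAF15. All 3 sh values were below all 5 others, and the sh-NC value was the lowest. The mean was 730 ± 270 FPKM (SD, n = 5) in the vector and TIF1γ lines and 251 ± 107 (n = 3) in the sh lines, with a fitted log2 fold change of -1.98 (SE 0.22, adjusted p = 2.19e-05 by limma). GPX1, the ubiquitous cytosolic peroxidase, was not called. It stood at 461, 594 and 448 in vector, at 958 and 603 in TIF1γ, at 483 in sh-NC, and at 675 and 1045 in sh-TAF15. These ranges overlapped, and the sh-TAF15 replicate 3 value was the highest of all 8. Its fitted log2 fold change was -0.12 (SE 0.23, adjusted p = 0.681 by limma). The sign of the GPX1 value depends on the setting: it was 0.05 without scaling and, once the GC and length trend was taken out, 0.86 (adjusted p = 0.00134).

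GSTP1, the pi-class glutathione transferase, stood at 2345, 2982 and 2378 FPKM in vector, at 5550 and 2835 in TIF1γ, at 853 in sh-NC, and at 864 and 1405 in sh-TAF15. The sh libraries were again below all others, and TIF1γ replicate 2 stood far above the rest. The means were 3218 ± 1333 (n = 5) and 1041 ± 315 (n = 3), and the fitted log2 fold change was -1.89 (SE 0.25, adjusted p = 9.48e-05 by limma). NQO1, the quinone reductase often used as a readout of NRF2 activity, stood at 4010, 4654 and 3931 in vector and at 5960 and 4479 in TIF1γ. It stood at 1715 in sh-NC and at 1555 and 2238 in sh-TAF15, so that no sh library reached the lowest vector library. NQO1 remained the most abundant of the 10 genes in every group by its mean. Its fitted log2 fold change was -1.56 (SE 0.21, adjusted p = 1.19e-04 by limma). The unscaled FPKM means were 4607 ± 816 (n = 5) and 1836 ± 357 (n = 3).

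HMOX1, the inducible heme oxygenase, stood at 99.4, 90.4 and 69.3 FPKM in vector, at 144 and 85.1 in TIF1γ, at 32.4 in sh-NC, and at 47.1 and 52.3 in sh-TAF15. The groups did not overlap, and sh-NC was the lowest. The means were 97.6 ± 28.0 (n = 5) and 44.0 ± 10.3 (n = 3), with a fitted log2 fold change of -1.43 (SE 0.21, adjusted p = 2.29e-04 by limma).

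Among the 10 genes, those that make or recycle glutathione, GCLC, GCLM and GSR, did not pass this test. GCLC stood at 69.7, 63.1 and 40.4 FPKM in vector, at 37.5 and 33.9 in TIF1γ, at 39.4 in sh-NC, and at 34.04 and 36.9 in sh-TAF15. Vector replicates 1 and 2 were high and the remaining 6 libraries lay close together (log2 fold change of the sh lines -0.43, SE 0.21, adjusted p = 0.114 by limma). GCLM stood at 47.9, 51.3 and 27.9 in vector, at 26.7 and 23.2 in TIF1γ, at 42.5 in sh-NC, and at 43.8 and 43.5 in sh-TAF15. Here the sh libraries lay inside the vector range and above both TIF1γ libraries (0.25, SE 0.22, adjusted p = 0.378; the GC-corrected value was -0.40). Neither subunit of the ligase passed the threshold. GSR stood at 253, 276 and 180 in vector, at 248.9 and 191 in TIF1γ, at 147 in sh-NC, and at 191 and 226 in sh-TAF15. Only sh-NC lay below every vector and TIF1γ library. Its log2 fold change was -0.54 (SE 0.21, adjusted p = 0.0538 by limma), which became -0.62 (adjusted p = 0.0293) without vector replicate 3 and -0.59 (adjusted p = 0.0493) without TIF1γ replicate 3. GCLC likewise passed without vector replicate 3, at -0.53 (adjusted p = 0.0271).

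NFE2L2, the NRF2 gene, was not called. It stood at 20.0, 20.0 and 13.5 FPKM in vector, at 7.65 and 14.96 in TIF1γ, at 21.1 in sh-NC, and at 19.5 and 16.2 in sh-TAF15. The sh values overlapped the vector values, and the lowest library was TIF1γ replicate 2. The fitted log2 fold change was 0.30 (SE 0.26, adjusted p = 0.369 by limma). KEAP1, its inhibitor, overlapped between the groups too, at 53.4 to 101 FPKM in the vector and TIF1γ lines and 56.2 to 93.7 in the sh lines (-0.19, SE 0.22, adjusted p = 0.517 by limma).

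**Figure D2:**
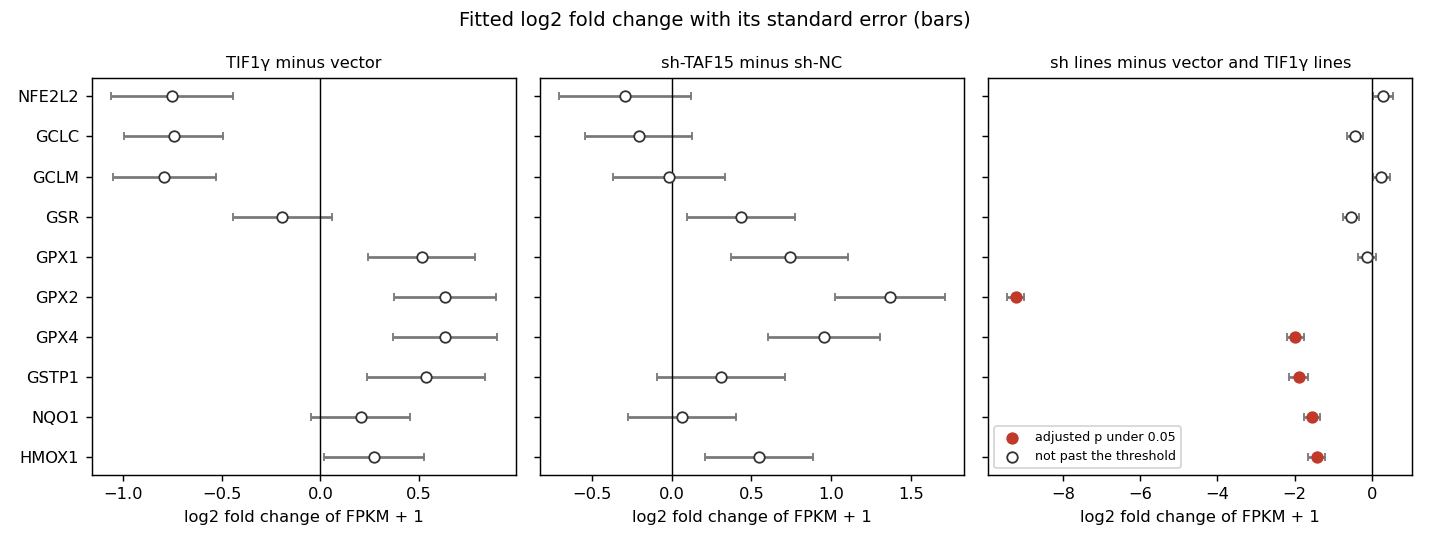
Fitted log2 fold change of FPKM + 1 (horizontal axis, own range in each panel) of the 10 genes in 3 contrasts, with its standard error as a bar; filled points passed an adjusted p of 0.05 by limma. No gene is filled for TIF1γ minus vector or sh-TAF15 minus sh-NC, and 5 are filled for the sh lines, with GPX2 at -9.23.

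Base composition moved with these contrasts. Across 11720 protein-coding genes, which are not independent replicates, the log2 fold change of the sh lines had a Spearman rho of -0.58 with transcript GC percent. Among the 10 genes, GC percent ran from 37.3 in GCLM to 64.2 in GPX1, with NFE2L2 at 45.6, GCLC at 44.3, NQO1 at 46.0, GSR at 48.2, GPX2 at 53.1, HMOX1 at 58.1, and GPX4 and GSTP1 at 62.5. With the GC and length trend removed within each library, GPX4 was at -1.05 (adjusted p = 3.80e-04 by limma), GSTP1 at -1.07 (adjusted p = 0.00158) and HMOX1 at -0.78 (adjusted p = 0.011), each closer to 0 than before and each still called. NQO1 at -1.73 (adjusted p = 3.42e-04) and GPX2 at -8.66 (adjusted p = 1.08e-06) were also still called. GCLC at -0.79 (adjusted p = 0.0113) and GSR at -0.62 (adjusted p = 0.0305) were then called lower. GPX1 was then called higher, which made 8 of the 10 genes called against 5, 7 of them lower. In that setting 32.2% of all genes tested were called, 14.6% lower and 17.6% higher. NFE2L2 stood at 0.11 and GCLM at -0.40, both short of the threshold. Leaving out any 1 library kept GPX2, GPX4, GSTP1, NQO1 and HMOX1 called lower each time.

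**Figure D3:**
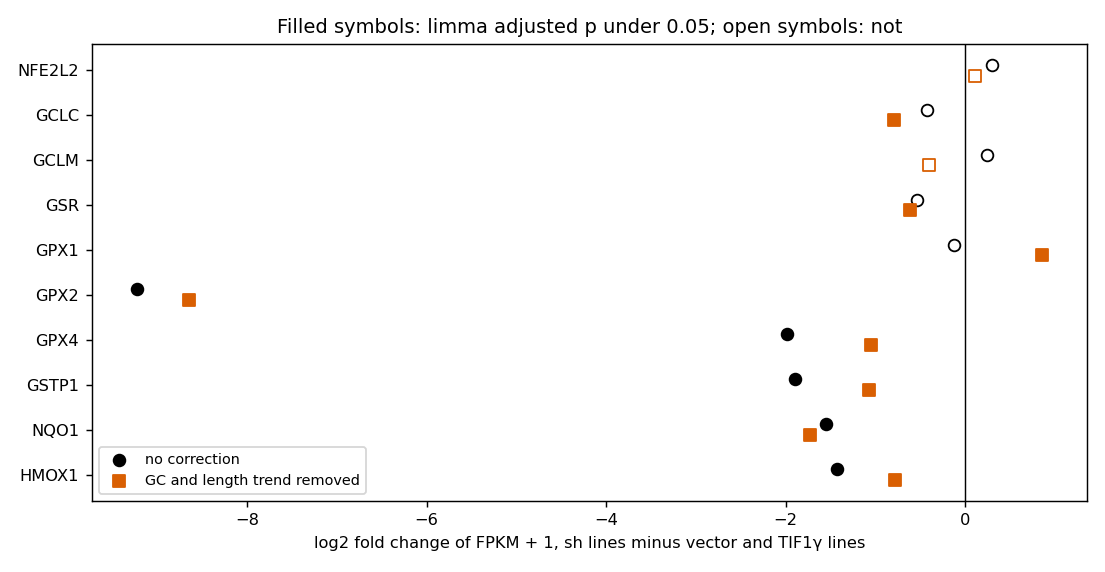
Log2 fold change of FPKM + 1 in the sh lines minus the vector and TIF1γ lines (horizontal axis) of the 10 genes, without correction (circles) and with the GC and length trend removed (squares); filled symbols passed an adjusted p of 0.05 by limma. GPX4, GSTP1 and HMOX1 move toward 0 and stay filled, NQO1 moves slightly away from 0, and GPX1 moves from -0.12 to 0.86.

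The same 5 genes were lower when only the control lines were compared. In sh-NC minus vector, GPX2 was at -9.60 (adjusted p = 1.53e-09 by limma), GPX4 at -2.14 (adjusted p = 0.00108), GSTP1 at -1.78 (adjusted p = 0.00871), HMOX1 at -1.57 (adjusted p = 0.00674) and NQO1 at -1.49 (adjusted p = 0.00926). Of all genes tested 11.1% were called in this contrast, 7.49% lower. It splits into 506 higher and 1041 lower calls, or 899 and 782 without scaling and 804 and 771 with the GC and length trend removed. GSR at -0.85 (adjusted p = 0.101) and GCLC at -0.70 (adjusted p = 0.171) did not pass, nor did NFE2L2 at 0.06 (adjusted p = 0.931). The contrast shares its libraries with the one above, so its values are not separate evidence. It rests on 1 sh-NC library, whose spread is taken from the other groups. NQO1 lost its call with replicate number added to the fit. With the GC and length trend removed as well, NQO1, GSTP1 and HMOX1 lost theirs. GSTP1 lost its call without the low-value filter (adjusted p = 0.0573). Removing the GC and length trend left GPX4 at -1.28, GSTP1 at -1.04, HMOX1 at -0.98, NQO1 at -1.59 and GPX2 at -9.01, all still called, with adjusted p up to 0.0472.

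TIF1γ overexpression was compared with the empty vector to see how the lines with added TIF1γ differed. The 3 glutathione peroxidases had higher values in both TIF1γ libraries than in all 3 vector libraries, and both subunits of glutamate-cysteine ligase had lower values, but none of the 10 genes passed the test. The peroxidase means were 780 ± 251 FPKM (n = 2) against 501 ± 80.8 (n = 3) for GPX1, 1280 ± 202 against 781 ± 197 for GPX2, and 969 ± 306 against 571 ± 62.1 for GPX4. The ligase means were 35.7 ± 2.54 against 57.8 ± 15.4 for GCLC and 25.0 ± 2.48 against 42.4 ± 12.7 for GCLM. For GPX1 the gap was narrow, with 603 in TIF1γ replicate 3 against 594 in vector replicate 2. NFE2L2, GSR, GSTP1, NQO1 and HMOX1 overlapped. Among all genes tested, 20.8% had both TIF1γ libraries above all vector libraries and 16.8% below, so 3 and 2 of 10 lie near that background.

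In limma, 0 of the 10 genes and 0.0216% of all genes tested were called in TIF1γ minus vector, while 5 of the 10 and 2746 of all 13907 had an unadjusted p under 0.05. GCLM was at -0.79 (SE 0.26, adjusted p = 0.196), GCLC at -0.74 (SE 0.25, adjusted p = 0.198) and NFE2L2 at -0.75 (SE 0.31, adjusted p = 0.223). GPX2 was at 0.63 (SE 0.26, adjusted p = 0.221) and GPX4 at 0.63 (SE 0.26, adjusted p = 0.226). The remaining 5 ran from -0.19 in GSR to 0.54 in GSTP1, with adjusted p of 0.296 to 0.661. The median over the 10 genes was 0.24, against 0.01 for all genes tested. Over protein-coding genes the rho of this contrast with GC percent was 0.78. With the GC and length trend removed, GCLM was at -0.15, GCLC at -0.39, GPX4 at 0.08, GPX1 at -0.07 and GSTP1 at 0.01. NFE2L2 stood at -0.54 and GPX2 at 0.38 in that setting, none of them called. Without vector replicate 3, GCLC at -0.96 (adjusted p = 0.0492) and GCLM at -1.04 (adjusted p = 0.0415) were called, beside 297 genes in all against 3. The GCLC and GCLM values of that vector library were the lowest of the vector group, near those of TIF1γ. For NFE2L2 the low value came from TIF1γ replicate 2, at 7.65 FPKM, while replicate 3 at 14.96 lay inside the vector range.

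The sh-TAF15 line was compared with the control shRNA line, with the knockdown itself not checked. GPX1, GPX2, GPX4, GSR, GSTP1, HMOX1 and GCLM had higher values in both sh-TAF15 libraries than in the lone sh-NC library, but none of the 10 genes passed the test. The sh-TAF15 libraries stood at 1.95 ± 0.0867 FPKM (n = 2) against 0.0758 for GPX2, at 303 ± 82.5 against 147 for GPX4, and at 860 ± 262 against 483 for GPX1. HMOX1 stood at 49.7 ± 3.66 against 32.4, and GSR at 209 ± 25.3 against 147. NFE2L2 and GCLC were lower in both, and NQO1 lay on either side. Of all genes tested 39.3% lay above and 33.7% below in this sense. Limma called 0 of the 10 genes and 0.0575% of all genes tested, with 2 of the 10 and 784 of all at an unadjusted p under 0.05. The 2 were GPX2 at 1.37 (SE 0.34, adjusted p = 0.286) and GPX4 at 0.95 (SE 0.35, adjusted p = 0.706). GPX2 passed with a pseudocount of 0.1, at 3.44 (adjusted p = 0.00111). The others ran from -0.29 in NFE2L2 to 0.74 in GPX1, with adjusted p of 0.892 to 1. The median over the 10 genes was 0.37 against 0 for all genes tested, and the rho with GC percent was 0.42. GSTP1 at 0.31 and GCLM at -0.02 changed sign with the GC and length trend removed, to -0.05 and 0.23.

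The difference between the TIF1γ and sh-TAF15 effects was tested as an interaction. None of the 10 genes was called (0.0431% of all genes tested were), none had an unadjusted p under 0.05, and 8 of the 10 differences were below 0. All 10 had an adjusted p of 0.999 by limma. With a pseudocount of 0.1, GPX2 was called, at -2.81 (adjusted p = 0.0458 by limma), with sh-NC at an estimated 1.4 fragments.

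The wider pathway was described with 8 lists that hold 125 further genes, 117 of them tested. In the sh lines 55 were called lower and 13 higher, with a median log2 fold change of -0.47 against 0.01 for all genes tested. The shares over all genes tested were 21.4% lower and 20.0% higher. These and the following list counts are to be read against them where no other setting is named. The counts became 42 and 12 with the GC and length trend removed (all genes 14.6% and 17.6%), 39 and 18 without scaling (16.6% and 27.6%), and 35 and 9 without sh-NC replicate 2 (14.5% and 11.9%). A count for another setting is to be read against the shares in that setting. Those shares were also smaller in both directions without sh-TAF15 replicate 2, sh-TAF15 replicate 3, TIF1γ replicate 2 or vector replicate 1. In TIF1γ minus vector and in sh-TAF15 minus sh-NC none of the 117 was called. The plot of calls by list shows these counts without correction. Without scaling, 6 transferases and 7 reductases were called lower and 1 of each higher, and 2 of 8 heme and iron genes were called lower. With the GC and length trend removed, 8 transferases, 7 reductases and 1 heme and iron gene were called lower. The paralogs AKR1C1, AKR1C2 and AKR1C3, the members of the GSTM family, and UGT1A6 share sequence or exons with neighbouring genes, so the split of reads among such genes is uncertain.

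**Figure D4:**
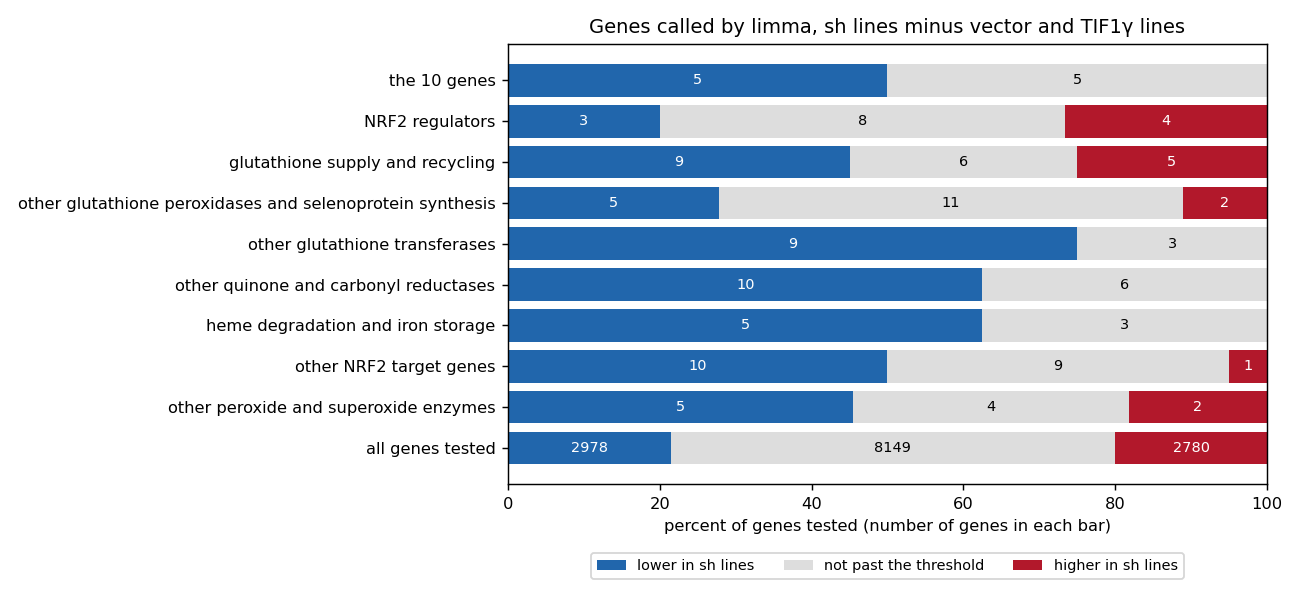
Percent of tested genes in each list (horizontal axis) that limma called lower, called higher or did not call in the sh lines minus the vector and TIF1γ lines, with the number of genes in each bar. Other glutathione transferases (9 of 12 lower), other quinone and carbonyl reductases (10 of 16) and heme and iron genes (5 of 8; 1 of 8 with the GC and length trend removed) hold the largest lower shares in this setting, against 2978 of 13907 genes tested.

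The counts for NRF2 regulators lay near the shares over all genes, with 4 of 15 tested called higher and 3 lower in the sh lines (median -0.10, 0.07 without scaling, and 0.13 with the GC and length trend removed, when 2 were higher and 2 lower; 1 was higher without sh-NC replicate 2 or TIF1γ replicate 2, and 2 without sh-TAF15 replicate 2 or vector replicate 1). NFE2L3, which encodes the NRF2 relative NRF3, stood at 29.97 FPKM in sh-NC and at 20.2 and 19.8 in sh-TAF15, against 1.96 to 7.01 in the vector and TIF1γ lines (log2 fold change 2.38, SE 0.25, adjusted p = 1.29e-05 by limma). The small MAF gene MAFK, a partner of NRF2, stood at 11.9 to 14.4 against 20.4 to 45.6 (-1.38, SE 0.21, adjusted p = 2.51e-04). SQSTM1, the autophagy receptor that sequesters KEAP1, stood at 991 to 1459 against 1563 to 2350 (-0.83, SE 0.20, adjusted p = 0.00494). Removing the GC and length trend left NFE2L3 at 2.16, MAFK at -0.80 and SQSTM1 at -0.38 (adjusted p = 0.0485), all called. The rises of CUL3 (0.79, adjusted p = 0.029) and BACH1 (0.70, adjusted p = 0.0398), which competes with NRF2 for its sites, passed without that correction, and with it they stood at 0.14 (adjusted p = 0.691) and 0.07 (adjusted p = 0.802).

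Of 20 genes of glutathione supply and recycling, 9 were called lower and 5 higher (median -0.29; 6 were lower without sh-TAF15 replicate 3). GGT1, which cleaves extracellular glutathione, stood at 33.6 to 64.9 FPKM in the sh lines against 89.5 to 208 (-1.79, SE 0.20, adjusted p = 2.20e-05 by limma). GLRX, a glutaredoxin, stood at 42.8 to 72.0 against 125 to 168 (-1.65, SE 0.23, adjusted p = 1.34e-04). GLO1, the glyoxalase that uses glutathione to detoxify methylglyoxal, went the other way, at 67.2 to 95.4 against 16.4 to 41.0 (1.51, SE 0.20, adjusted p = 1.09e-04). SLC7A11, the cystine importer subunit and a known NRF2 target, stood at 13.0 to 26.3 against 3.01 to 10.0 (1.23, SE 0.31, adjusted p = 0.00735), but only at 0.53 (adjusted p = 0.145) after that trend was taken out. GSS, which completes glutathione, stood at 48.6 to 77.5 against 85.1 to 159 (-1.02, SE 0.21, adjusted p = 0.00198). SLC7A11, GSS, CUL3, BACH1 and KEAP1 are named after their values were seen.

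Of 18 other peroxidase and selenoprotein genes, 5 were called lower and 2 higher (2 and 2 without sh-NC replicate 2; 3 and 2 without sh-TAF15 replicate 2). GPX3, the secreted peroxidase, stood at 0.204 to 1.18 FPKM in the sh lines against 8.10 to 26.6 (-3.20, SE 0.29, adjusted p = 3.59e-06 by limma). SELENOM, a selenoprotein of the endoplasmic reticulum, stood at 28.4 to 60.1 against 99.2 to 229 (-2.16, SE 0.24, adjusted p = 2.06e-05). MSRB1, a methionine sulfoxide reductase, was called at -0.90 (adjusted p = 0.0033) but stood at -0.15 with the GC and length trend removed and at -0.53 (adjusted p = 0.0869) without sh-NC replicate 2.

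Of 12 other glutathione transferases 9 were called lower and 0 higher (median -0.83), but 4 were lower without sh-NC replicate 2 and 6 without sh-TAF15 replicate 2. GSTM3 stood at 0.954 to 2.33 FPKM in the sh lines against 9.86 to 17.3 (-2.62, SE 0.23, adjusted p = 2.88e-06 by limma). GSTM2, also tested, reached 1 FPKM only in the TIF1γ libraries, at 3.925 and 1.30, and passed the filter only through them. GSTZ1, also maleylacetoacetate isomerase, stood at 27.0 to 77.3 against 63.2 to 121 and so overlapped, at -1.26 (SE 0.23, adjusted p = 0.00108). GSTO2 was at -1.11 (adjusted p = 0.00539), and at -0.52 (adjusted p = 0.199) without sh-NC replicate 2. Of 16 other quinone and carbonyl reductases 10 were called lower and 0 higher (median -0.78; 7 lower without sh-TAF15 replicate 2). The aldo-keto reductase AKR1C2 stood at 125 to 264 against 3490 to 4465 (-4.67, SE 0.20, adjusted p = 5.74e-09). AKR1C1 at -3.59 and AKR1C3 at -3.56 were lower as well, and all 3 were further from 0 with the GC and length trend removed.

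Of 8 tested genes of heme degradation and iron storage 5 were called lower, but 1 without sh-NC replicate 2, 3 without sh-TAF15 replicate 2, and 1 with the GC and length trend removed. SLC40A1, the iron exporter ferroportin, stood at 0.469 to 0.804 FPKM in the sh lines against 1.20 to 3.72 (-1.14, SE 0.29, adjusted p = 0.00784 by limma; 0.0511 without the low-value filter). FTH1, the ferritin heavy chain, was called at -0.80 (adjusted p = 0.00844), but not without scaling (adjusted p = 0.062) or, at -0.41 (adjusted p = 0.0665), after the trend was taken out. It stood at 7361 to 10982 in the sh lines and 10702 to 18482 in the others. BLVRB, a biliverdin reductase, was called at -0.86 (adjusted p = 0.00828), and at -0.13 (adjusted p = 0.461) in that setting. Without sh-NC replicate 2, FTH1 at -0.58 (adjusted p = 0.0779) and BLVRB at -0.48 (adjusted p = 0.169) lost their calls. FTL, the ferritin light chain, was listed at 0 in all vector and TIF1γ libraries and at 14970 to 33399 in the sh lines, and was set aside from every test.

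Of 20 other NRF2 target genes 10 were called lower and 1 higher (median -0.62; 7 and 0 with the GC and length trend removed). The carboxylesterase gene CES1 stood at 0 to 0.0788 FPKM in the sh lines against 23.5 to 54.2, with a fitted value of -5.02 (SE 0.31, adjusted p = 2.20e-07 by limma) that depends on the pseudocount. ALDH3A1, an aldehyde dehydrogenase, stood at 568 to 1989 against 1824 to 5179 (-1.84, SE 0.26, adjusted p = 1.51e-04). UGT1A6, a glucuronosyltransferase, stood at 0 to 0.504 FPKM in the sh lines against 1.69 to 5.46 (-2.001, SE 0.29, adjusted p = 1.75e-04). CES1 and UGT1A6 reached 1 FPKM only in the vector and TIF1γ lines and passed the filter only through them. The fitted value of UGT1A6 depends on the pseudocount too. Of 11 other peroxide and superoxide enzymes 5 were called lower and 2 higher (2 and 1 with the GC and length trend removed; 3 lower without sh-NC replicate 2, sh-TAF15 replicate 2 or TIF1γ replicate 2). The mitochondrial superoxide dismutase SOD2 stood at 31.5 to 33.2 against 60.2 to 96.3 (-1.44, SE 0.22, adjusted p = 2.85e-04). PRDX5 at -1.04 and PRDX2 at -0.98 were called, and stood at -0.08 and -0.37 with the trend removed, neither called. PRDX5 overlapped, at 394 to 711 FPKM in the sh lines against 596 to 1364. PRDX2 stood at 0 to 0.118 against 0.678 to 1.42. It passed the filter only through vector and TIF1γ libraries, so its call is only a description.

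In the contrasts of the 2 manipulations, the list genes with the lowest adjusted p did not pass either. For TIF1γ minus vector they included GLO1 at -1.09 (adjusted p = 0.179 by limma), CRYZ at -0.89 (adjusted p = 0.193), CUL3 at -0.93 (adjusted p = 0.198), MAFK at 0.80 (adjusted p = 0.193) and TXNRD1, the cytosolic thioredoxin reductase, at -0.85 (adjusted p = 0.196). Without vector replicate 3, GLO1 at -1.23 and CUL3 at -1.27 were called (both with adjusted p = 0.0407). For sh-TAF15 minus sh-NC they included ALDH3A1 at 1.60 (adjusted p = 0.29), AKR1C2 at 1.02 (adjusted p = 0.563) and AKR1B10 at 0.97 (adjusted p = 0.701).

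Genes of like pattern were sought for each of the 10 genes by the Pearson correlation of log2(FPKM + 1) over the 8 libraries, among 7308 genes that vary. The libraries share group, depth and base composition, so r is a description. GPX2 was most like AKR1C1 (r = 0.998), AKR1C2 (r = 0.997) and the muscle-type enolase ENO3 (r = 0.997), though none of them fell to the level of GPX2. ENO3 stood at 30.6 to 57.0 FPKM in the vector and TIF1γ lines and at 1.92 to 4.04 in the sh lines. NQO1 was most like METTL7B, S100A4 and BST1 (r = 0.994 to 0.999), GPX4 like TMEM102, DGAT1 and NUDT14 (r = 0.996 to 0.999), and GSTP1 like ACOT8, HSD17B8 and DDT (r = 0.997 to 0.998). HMOX1 was most like TMEM98, IGFBP7 and ABHD16B (r = 0.988 to 0.992). For GCLM the nearest were ZNG1A, NUP88 and RSPO3 (r = 0.973 to 0.996), and for GCLC they were ALDH1A3, INA and HPGD (r = 0.934 to 0.966). GSR was close to GTF3A (r = 0.973) and RPS7P10 (r = 0.969), GPX1 to GGCX, COQ4 and FTH1P7 (r = 0.95 to 0.98), and NFE2L2 to VPS13C, KCTD9 and SPAG1 (r = 0.981 to 0.988). No gene appeared in more than 1 of these 10 sets, and none of the 10 genes was among the nearest of another.

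**Figure D5:**
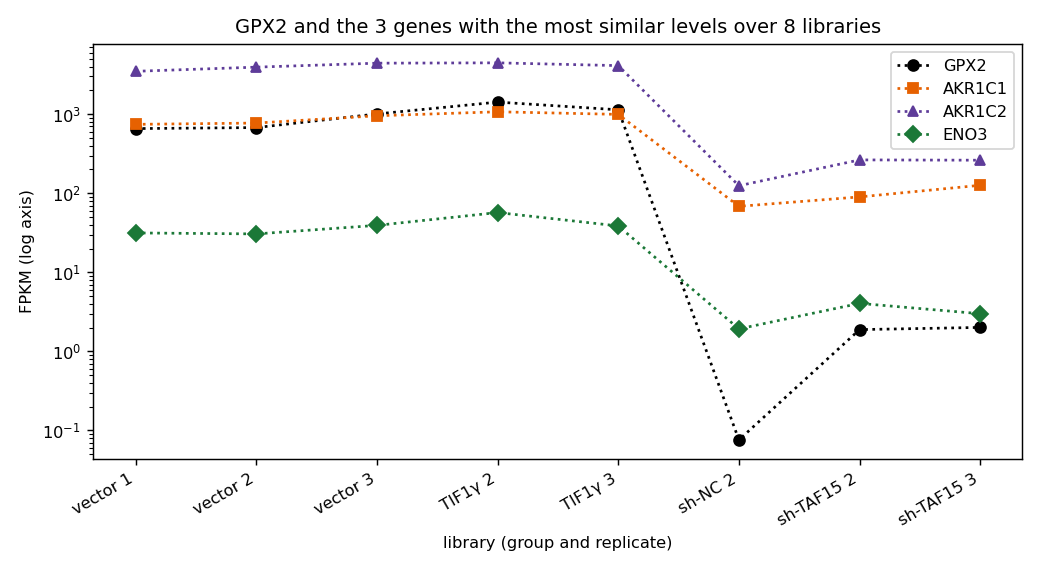
FPKM (vertical axis, log scale) of GPX2, AKR1C1, AKR1C2 and ENO3 in each of the 8 libraries (horizontal axis, by group and replicate); the dotted lines only guide the eye. All 4 genes are lower in the 3 sh libraries, and GPX2 drops furthest, to 0.0758 FPKM in sh-NC.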

How the data were processed

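RNA-seq values of 8 libraries were analysed. The authors deposited FPKM per gene (one column per library, linear scale, not logged). Per the submitters' processing notes, cutadapt 1.9.1, HISAT2 2.0.1, HTSeq 0.6.1 and GRCh37 were used; how FPKM was computed is not given in the sources used here. Per the labels' protocols, RNA was selected by poly(A) or depleted of rRNA, and strand is not stated. Fragment numbers were estimated from the steps between low FPKM values.

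From the deposited FPKM, 19 genes listed at 0 in one library beside 100 FPKM or more in another were set aside (11 past the filter). Genes at 1 FPKM or more in at least 2 libraries were kept (13907), brought to a common scale with trimmed means of log2 ratios (30% of ratios and 5% of abundances trimmed), and log2-transformed with a pseudocount of 1, which understates changes of low genes. Some list genes, among them PRDX2, UGT1A6, CES1, SLC40A1, GPX3, GSTM2 and KRT19, passed this filter only through vector or TIF1γ libraries. COL1A2 passed it only through sh libraries. Any call of these genes in the sh lines is therefore only a description. limma 3.58.1 in R 4.3.3 (eBayes, trend and robust) fitted 4 groups together with 4 residual and 9.54 prior degrees of freedom, and p-values were Benjamini-Hochberg adjusted over all genes tested. The fit was also run on simulated data with known changes. Those data were drawn without a GC trend, so that run does not bear on the GC dependence. GC percent and length came from GENCODE 29 and covered 13534 tested genes. The 10 genes and the lists were chosen with earlier results of these data known. Named were all 10 genes, per list the 3 genes with the lowest adjusted p in each of 3 contrasts (some of which are printed), and 3 genes of like pattern per gene (mean of 2 FPKM or more; 1 of them is not reported here). The study's design text calls the replicates biological; how far they were separate cultures is not stated, so p-values measure the spread between these libraries.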

Additional observations from a re-analysis of the deposited data

How the results depend on the processing

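The numbers of genes called in the 2 manipulations were small and unstable. For TIF1γ minus vector the count of 3 became 5 with a pseudocount of 0.1, 5 with only the groups compared in the fit, 0 without the filter and 0 with the GC and length trend removed, and 1 to 297 when 1 library was left out. For sh-TAF15 minus sh-NC the count of 8 became 21, 1, 187 and 0 in that order of settings, and 4 to 49. For the difference of effects the count of 6 became 103 without the filter and 0 with the trend removed, and 3 to 17. Called genes of the 10 went from 0 to 1 with a pseudocount of 0.1 in sh-TAF15 minus sh-NC and in the difference, and from 0 to between 0 and 2 on leaving out 1 library in TIF1γ minus vector. In the sh lines the calls among all genes ran from 3670 to 6374 against 5758, the lowest without sh-NC replicate 2, and 5 of the 10 became 8 with the trend removed, when 4357 genes were called in all, and 5 to 7 on leaving out 1 library. The causes were not tested. The replicate numbers only name the libraries: deviations of same-numbered libraries correlated at 0.15 (vector with TIF1γ), -0.32 (vector with sh-TAF15) and -0.24 (TIF1γ with sh-TAF15). A fit with the replicate block called 43 genes for TIF1γ minus vector, 52 for sh-TAF15 minus sh-NC, 31 for the difference, 1020 for sh-NC minus vector against 1547, where NQO1 was at -1.51 (adjusted p = 0.0856 by limma), and 0, 0, 0, 507 and, in the sh lines, 2690 when the GC and length trend was removed as well, with 2 of the 10 genes in place of 5 then called in sh-NC minus vector (NQO1, GSTP1 and HMOX1 had adjusted p of 0.0574, 0.121 and 0.106). In the sh lines SQSTM1 lost its call with the block, at -0.82 (adjusted p = 0.0602), and with both, at -0.36 (adjusted p = 0.205).

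Some values changed sign, mostly near 0. For TIF1γ minus vector, GPX1 was at -0.0655 with the trend removed and -0.0556 with the replicate block added, HMOX1 at -0.14, CBR4 at 0.12 and 0.0399, and FLVCR1 at 0.0099 and 0.0465. On leaving out 1 library HMOX1 ran from -0.0141 to 0.56 and CAT from -0.996 to 0.0639, each end set by a TIF1γ replicate. For sh-TAF15 minus sh-NC, GCLC was at 0.047 with block and trend removal, GSTP1 at -0.054 with trend removal, and GCLM at 0.0372 unscaled, 0.23 with trend removal, 0.12 with the block and 0.40 with both. On leaving out 1 library GCLM ran from -0.0462 to 0.0087, GSTP1 from -0.0155 to 0.64 and NQO1 from -0.17 to 0.30, each end set by an sh-TAF15 replicate. For the sh lines, GCLM was at -0.40 with trend removal and -0.46 with the block added, and GPX1 at 0.0522 unscaled, 0.86 with trend removal and 0.85 with the block added. GPX1 ran from -0.27 to 0.25 on leaving out 1 library, above 0 without sh-NC replicate 2 or sh-TAF15 replicate 2. Leaving out sh-NC replicate 2 gives no value for contrasts that need it. Depth limits GPX2 in sh-NC to an estimated 1.4 fragments.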
